A study of Rattus norvegicus with 30 samples.

Results

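Dorsal root ganglia (DRG) hold the cell bodies of the sensory neurons whose axons run in the sciatic nerve, and the arrays of ganglia taken at 4 d after the nerve had been resected were compared with those taken at 0 d. The members were chosen by sample title, 3 arrays of DRG at 4 d and 3 arrays of DRG at 0 d, which is 6 of the 30 arrays of the series. In the labels, every rat was an adult male Sprague-Dawley rat, from 5 groups of 6 rats, in which a 1 cm segment of the left sciatic nerve was cut out under anaesthesia, and L4-6 ganglia were collected at 0, 1, 4, 7 or 14 d. The 0 d group is the control here, of the same strain, sex and tissue. How many rats an array holds is not given in the sources used here, so that p-values measure the spread between these arrays. The other 24 arrays, of ganglia at 1, 7 and 14 d and of the proximal sciatic nerve (SN) on all 5 days, were used to estimate the spread and to set the 4 d values beside them. Those of ganglia also took part in deciding which probes were tested and which probe represents a gene.

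A cut axon sends signals back to its cell body in the ganglion, and the neuron is known to turn on transcription factors of the stress and AP-1 kind, growth-associated proteins and a different set of neuropeptides, while genes of its usual sensory work may decline. Satellite glia wrap each neuronal body, Schwann cells ensheathe the axons inside the ganglion, and resident and blood-derived macrophages are known to gather there after nerve injury. A whole ganglion mixes all of these cells. In such tissue, more cells of a type and more RNA per cell cannot be told apart.

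Values are normalized signals, which are log2 intensities relative to the 75th percentile of the array, and a change is the difference of 2 group means on that log2 scale. A gene was called when its Benjamini-Hochberg adjusted p in limma was under 0.05 and its fold change over 2. Each gene is represented by 1 probe. The tissue carried its defining markers on all 6 arrays: peripherin (Prph), an intermediate filament of peripheral neurons, lay between 7.66 and 7.97 and advillin (Avil), an actin-binding protein of sensory neurons, between 5.12 and 5.78. The 6 arrays resembled each other closely, with Pearson's r over probes of 0.986 to 0.991 within 0 d, 0.991 to 0.996 within 4 d and 0.976 to 0.985 between the days. The 0 d arrays were dimmer at the low end: 32602, 26941 and 28560 probes were well above background on them, against 34742, 34658 and 34621 at 4 d. All 0 d arrays were scanned on a day of their own and all 4 d arrays on another, so that scan day and time after injury cannot be told apart. No slide held ganglion arrays of both days, so that slide and time after injury cannot be told apart either. Replicates 2 and 3 of 0 d shared a slide, and replicate 1 of 0 d lay on another.

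At 4 d, 2112 probes of 34977 tested were called up, which is 6.04%, and 177 were called down, which is 0.506%. By gene, 757 of 14418 were upregulated (5.25%) and 90 were downregulated (0.624%). The counts of called members in the gene lists below are to be read beside these shares. For lists with many dim members 5.25% is too low a yardstick. Of genes well above background on all 6 arrays 2.28% were called up, so that the share among the other genes was above 5.25%. Many of the rises began in the background: 213 of the upregulated genes were well above background on none of the 0 d arrays and 273 on 1 or 2 of them. Among the 11884 genes that were well above background on all 6 arrays, 271 were called up (2.28%) and 83 were called down (0.698%). Of these rises, 16 exceeded 4 on the log2 scale, 7 lay between 3 and 4, 31 between 2 and 3 and 217 between 1 and 2, whereas all 83 falls lay between 1 and 2. The excess of rises depended on the filter on dim probes and on the scaling. Without the filter 2092 probes were called up and 2392 down, so that rises were 46.7% of calls. With the filter rises made up 92.3% of called probes in the main setting, 76.3% after quantile normalization, where 1232 probes rose and 383 fell, and 74.8% with the authors' values, where the median over all probes moved from 0.14 to 0.00.

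**Figure D1:**
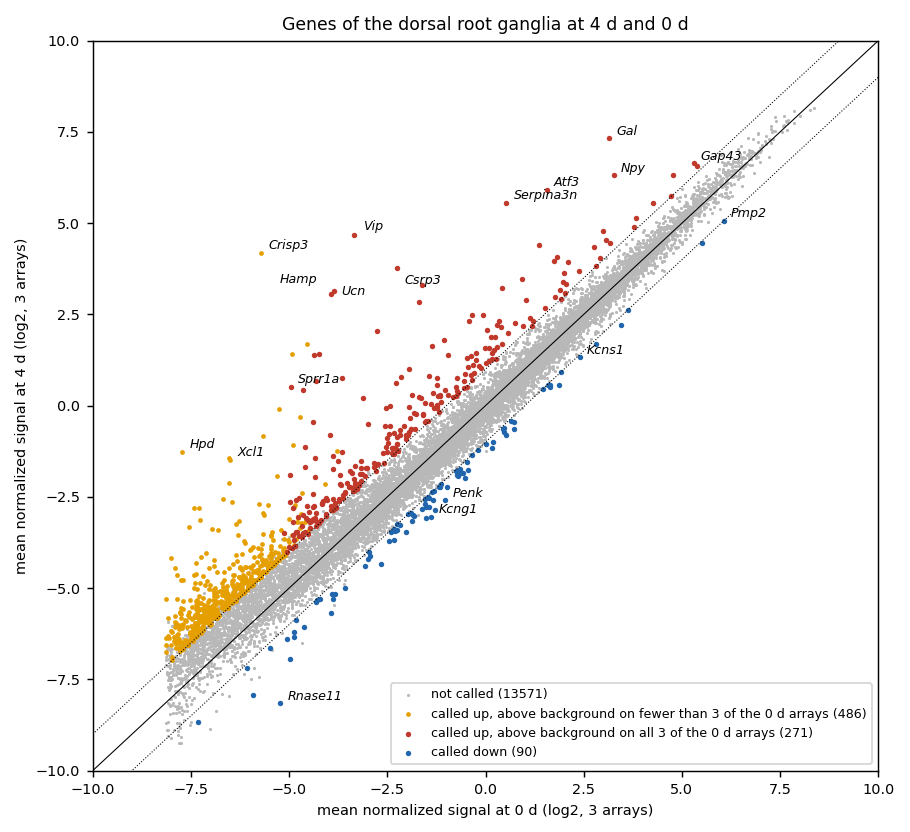
Mean normalized signal of each tested gene at 0 d (x axis, log2) and at 4 d (y axis, log2), 3 arrays each, with the line of equality and dotted lines at a 2-fold change. The 271 upregulated genes that were above background on all 0 d arrays (red) lie above the upper dotted line, 217 of them within 2 units of equality, most of the other upregulated genes (orange) lie at the dim end, and the 90 downregulated genes (blue) stay close to the lower dotted line.

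The largest rises among genes measured on all 6 arrays were those of a neuropeptide, an iron hormone and a stress peptide. Vip, vasoactive intestinal peptide, measured -2.97, -4.05 and -3.07 on the 0 d arrays and 4.29, 4.63 and 5.08 on the 4 d arrays (probe at rn4 chr1:36369392-36369451), a change of 8.03 ± 0.26 (SE), adjusted p = 1.54e-09, or 261-fold. Hamp, which encodes hepcidin, the hormone that limits iron export from cells, measured -4.14, -3.94 and -3.76 on the 0 d arrays and 3.15, 2.73 and 3.31 on the 4 d arrays (chr1:85978236-85978295), a rise of 7.01 ± 0.184 (SE), adjusted p = 2.25e-10. These genes were chosen among those whose day groups do not overlap. Ucn, urocortin, a peptide of the corticotropin-releasing factor family, measured -3.82, -4.00 and -3.79 on the 0 d arrays and 2.79, 3.08 and 3.52 on the 4 d arrays (chr6:25217544-25217603), a rise of 7.00 ± 0.168 (SE), adjusted p = 1.65e-10. Csrp3, the muscle LIM protein, measured -3.73, -0.88 and -2.13 on the 0 d arrays and 3.57, 3.65 and 4.12 on the 4 d arrays (chr1:98601873-98601932), a rise of 6.03 ± 0.487 (SE), adjusted p = 5.39e-06. Its 0 d arrays spread widely, in the same order as those of the muscle marker Acta1 (0.996, 4.42 and 2.82). The 4 d arrays of Acta1 measured 3.62, 3.83 and 1.62, an order that those of Csrp3 did not share. How much of the Csrp3 signal came from muscle was not tested. Skeletal muscle markers were present too, with the mean level of the muscle list in a range of 1.69 to 4.46 over the 0 d arrays and of 2.06 to 4.00 over those of 4 d. Its 8 tested members changed by -0.50 to 0.56, all under 2-fold, so that neither limma nor the methods' t-test could call one. An unadjusted p under 0.05 was found for 0 of them, but their wide spread within 0 d limits what such a test can detect.

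Further rises were those of Ptprh, a receptor tyrosine phosphatase (5.77 ± 0.143 (SE), adjusted p = 1.65e-10), Sprr1a, a small proline-rich protein known from cornified epithelium and from growing axons (5.47 ± 0.192 (SE), adjusted p = 2.95e-09), and Has1, a hyaluronan synthase (5.08 ± 0.312 (SE), adjusted p = 4.36e-07). Sprr1a measured -5.21, -4.80 and -4.88 on the 0 d arrays and 0.80, 0.13 and 0.60 on the 4 d arrays (probe at chr2:185464443-185464502). Serpina3n, a serine protease inhibitor, measured 0.17, 0.73 and 0.70 on the 0 d arrays and 5.38, 5.47 and 5.83 on the 4 d arrays (chr6:128469197-128469256), a 32.6-fold rise. The cytokines Il24 and Tslp rose by 4.99 and 4.82, with adjusted p = 7.01e-09 and 4.21e-10, and the lectin Reg3b by 4.93 (adjusted p = 2.9e-10). Pabpn1l, a relative of the nuclear poly(A)-binding protein, changed by 5.67 ± 1.32 (SE), adjusted p = 0.00809. Its 0 d arrays read -5.92, -3.45 and -3.37, and after Benjamini-Hochberg the methods' t-test left it uncalled (adjusted p = 0.0518).

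The start regions of the genes with the largest rises are shown because they rose together. RefSeq promoters (assembly GRCr8, 250 bases before the start to 50 after it) were held for 11 of the 12 genes, and 3 motifs were searched, each of which reads the same on both strands: the AP-1 motif TGANTCA, the cyclic AMP response element TGACGTCA and the STAT motif TTCNNNGAA. The AP-1 motif was found in 2 of the 11, the cyclic AMP element in 2 and the STAT motif in 4. Over 1 promoter each of 27457 genes these motifs occurred in 7.33%, 1.91% and 8.68%, and over the 11723 matched genes that were tested in 5.7%, 2.8% and 7.23%. Over the 206 matched genes that were upregulated and above background on all 6 arrays they occurred in 8.74%, 2.91% and 9.22%, and over the 59 downregulated ones in 5.08%, 1.69% and 6.78%. In the 4 promoters that follow, capitals mark the motifs, which do not overlap. Sprr1a holds 2 AP-1 motifs, which begin at positions -147 and -117 from the gene's start. Hamp holds an AP-1 motif at -107 and a STAT motif at -117, Ucn a cyclic AMP element at -110 and Serpina3n a STAT motif at -123.
Sprr1a, chr2:180752576-180752875, minus strand: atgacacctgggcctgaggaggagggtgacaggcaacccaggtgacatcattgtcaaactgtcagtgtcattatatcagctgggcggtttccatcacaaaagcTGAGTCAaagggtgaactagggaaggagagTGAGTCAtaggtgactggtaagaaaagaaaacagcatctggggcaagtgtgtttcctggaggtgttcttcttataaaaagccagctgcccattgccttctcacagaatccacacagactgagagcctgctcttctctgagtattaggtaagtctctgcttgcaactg
Hamp, chr1:95300222-95300521, minus strand: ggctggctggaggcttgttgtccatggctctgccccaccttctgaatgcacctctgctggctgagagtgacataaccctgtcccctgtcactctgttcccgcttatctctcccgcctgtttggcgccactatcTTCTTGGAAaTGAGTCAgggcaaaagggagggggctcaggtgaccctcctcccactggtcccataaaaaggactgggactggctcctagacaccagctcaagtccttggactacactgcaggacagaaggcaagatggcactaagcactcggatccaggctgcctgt
Ucn, chr6:30957836-30958135, plus strand: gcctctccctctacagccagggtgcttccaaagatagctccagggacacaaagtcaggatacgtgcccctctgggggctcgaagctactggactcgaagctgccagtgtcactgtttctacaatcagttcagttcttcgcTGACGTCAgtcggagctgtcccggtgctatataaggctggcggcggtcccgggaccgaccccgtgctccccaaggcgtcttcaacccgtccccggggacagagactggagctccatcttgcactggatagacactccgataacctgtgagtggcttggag
Serpina3n, chr6:129088142-129088441, plus strand: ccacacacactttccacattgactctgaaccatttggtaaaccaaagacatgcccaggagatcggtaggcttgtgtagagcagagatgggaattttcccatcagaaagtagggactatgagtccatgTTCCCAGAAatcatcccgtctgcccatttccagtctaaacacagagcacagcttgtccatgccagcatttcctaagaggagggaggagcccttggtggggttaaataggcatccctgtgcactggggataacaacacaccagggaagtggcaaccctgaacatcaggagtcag

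The promoters of Vip, Ptprh, Pabpn1l and Tslp held none of these letters in the window. A motif match describes the sequence only.

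In the list of injury-induced transcription factors, 11 of 34 tested were upregulated and none downregulated, with a list median of 0.62. Over all genes 5.25% were upregulated and the median was 0.05. This list, like the others, was chosen with earlier results of these data known, so that its share is no test against all genes. It also holds the cofactor Ankrd1 and the growth-arrest genes Gadd45a and Gadd45g. Atf3, a stress-induced factor of the ATF/CREB family, measured 1.40, 1.63 and 1.67 on the 0 d arrays and 5.74, 5.86 and 6.17 on the 4 d arrays (probe at chr13:107191691-107191749), a 20.5-fold rise (4.36 ± 0.121 (SE), adjusted p = 3.34e-10). Jun, the AP-1 subunit, measured 2.93, 2.94 and 3.13 on the 0 d arrays and 4.51, 4.84 and 5.03 on the 4 d arrays (chr5:115358764-115358823), a rise of 1.80 ± 0.121 (SE), adjusted p = 1.1e-06. In both genes the lowest 4 d array stood more than 1 unit above the highest 0 d array. Ankrd1, an ankyrin repeat cofactor best known from heart and muscle, rose by 4.41 ± 0.347 (SE), adjusted p = 4.21e-06, and Gadd45a, a growth-arrest and DNA-damage gene, by 2.24 ± 0.111 (SE), adjusted p = 6.44e-08. Sox11, a factor of neuronal development, measured -5.44, -6.01 and -5.49 on the 0 d arrays and -3.25, -3.03 and -2.73 on the 4 d arrays, a rise of 2.64 ± 0.233 (SE), adjusted p = 1.17e-05, but was well above background on 1 of the 3 0 d arrays only. The smaller rises were those of Gadd45g (1.64), Nfil3 (1.503), Crem (1.20), Fosl1 (1.17), Arid5a (1.17) and Smad1 (1.15). Stat3, the mediator of gp130 cytokine signals, changed by 0.36 ± 0.104 (SE), adjusted p = 0.0229, which is under a 2-fold change.

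**Figure D2:**
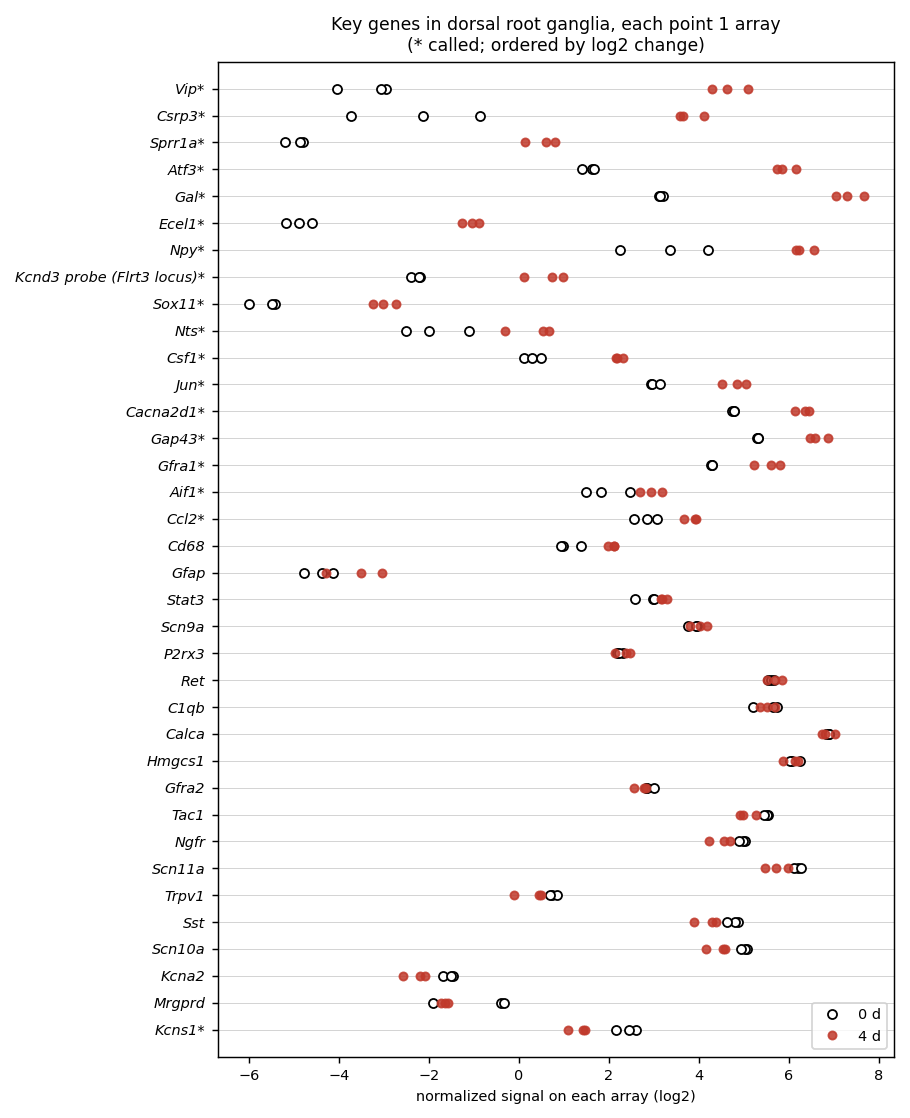
Normalized signal (x axis, log2) of each of 36 key genes on every array, open circles for the 3 arrays of 0 d and filled circles for the 3 of 4 d, ordered by change and with called genes starred. The 4 d points of Vip, Csrp3, Sprr1a, Atf3 and Gal stand clear of their 0 d points, while those of Calca, Ret and C1qb overlap with them.

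Of the growth cone and regeneration-associated genes, 17 of 40 tested were upregulated and none downregulated, with a median of 0.72. Gap43, a growth cone phosphoprotein that is abundant in regrowing axons, measured 5.28, 5.31 and 5.30 on the 0 d arrays and 6.47, 6.59 and 6.86 on the 4 d arrays (probe at chr11:60083891-60083950), a 2.52-fold rise (1.34 ± 0.096 (SE), adjusted p = 1.84e-06). The 0 d arrays of Gap43 lay close together and below every 4 d array. Serpinb2, plasminogen activator inhibitor 2, rose by 5.08 ± 0.202 (SE), adjusted p = 8.37e-09 and the endopeptidase-like Ecel1 by 3.82 ± 0.163 (SE), adjusted p = 1.54e-08, but they were well above background on 1 and 2 of the 0 d arrays. Arg1, arginase 1, rose by 4.53 ± 0.18 (SE), adjusted p = 8.37e-09, Flrt3, an adhesion protein, by 3.03 ± 0.162 (SE), adjusted p = 1.28e-07 and Stmn4, a microtubule-destabilizing stathmin, by 2.82 ± 0.158 (SE), adjusted p = 1.98e-07. Cdkn1a, the cell cycle inhibitor p21, rose by 2.53, the growth factor Fgf2 by 2.49, the membrane metalloprotease Mmp16 by 2.04 and Gch1, which makes the cofactor tetrahydrobiopterin, by 1.92. Tspo (1.502), the small heat shock protein Hspb1 (1.16) and the lectin Reg3a (1.08) rose as well, and the lectin Reg3g, above background on no 0 d array, was at least 3.35-fold higher, against the lowest signal well above background on each 0 d array. The Reg3 genes are close relatives, and how far their probes share signal was not tested.

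The 12 tubulin genes changed by -0.37 to 0.49, all under 2-fold, so that neither limma nor the methods' t-test could call one. Of them 4 had an unadjusted p under 0.05, and the list median was 0.03. A second probe of Tubb6 was called up (1.44, adjusted p = 2.98e-06). Among the 16 neurofilament and other intermediate filament genes, Krt19, a keratin, was the only one called (3.31 ± 0.236 (SE), adjusted p = 1.74e-06).

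Neuropeptides split into a set that rose steeply and a majority that did not, with 10 of 25 upregulated, 1 downregulated and a median of 0.00. Gal, galanin, measured 3.20, 3.11 and 3.13 on the 0 d arrays and 7.03, 7.29 and 7.66 on the 4 d arrays (probe at chr1:205936430-205936489), an 18.2-fold rise (4.18 ± 0.131 (SE), adjusted p = 1.07e-09). Npy, neuropeptide Y, measured 2.25, 4.20 and 3.36 on the 0 d arrays and 6.22, 6.16 and 6.56 on the 4 d arrays (chr4:78045125-78045184), a rise of 3.05 ± 0.464 (SE), adjusted p = 0.00077. Its 0 d arrays differed among themselves by nearly 2 units, and those of Gal by less than 0.1. Pdyn, the precursor of dynorphin, rose by 4.84 ± 0.221 (SE), adjusted p = 2.91e-08, from arrays of which 1 in 3 was above background at 0 d. Adcyap1, which encodes PACAP, rose by 2.22 ± 0.125 (SE), adjusted p = 1.98e-07, Nts, neurotensin, by 2.18 ± 0.337 (SE), adjusted p = 0.000842, Cck, cholecystokinin, by 1.22 and the granule protein Vgf by 1.03. Grp, gastrin-releasing peptide, was called up but was above background on no 0 d array, with no bound above 1. Penk, the enkephalin precursor, measured -1.24, -0.99 and -0.83 on the 0 d arrays and -2.44, -3.17 and -2.17 on the 4 d arrays, a fall with log2 change -1.57 ± 0.225 (SE), adjusted p = 0.000524, while its second probe, above background on no 0 d array, was not called (0.41). The peptides of nociceptors were not called: Calca, the precursor of CGRP, measured 6.82, 6.90 and 6.89 on the 0 d arrays and 6.81, 7.03 and 6.73 on the 4 d arrays and changed by -0.01 ± 0.137 (SE), adjusted p = 0.957, and Tac1, the precursor of substance P, measured 5.54, 5.51 and 5.44 on the 0 d arrays and 4.91, 5.28 and 4.97 on the 4 d arrays and changed by -0.44 ± 0.0991 (SE), adjusted p = 0.00668. Sst, somatostatin, changed by -0.57 ± 0.111 (SE), adjusted p = 0.00302. None of these 3 passed the 2-fold threshold.

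Among neuropeptide receptors 2 of 22 were upregulated and none downregulated, against 5.25% of all genes upregulated and 0.624% downregulated. Cckbr, a receptor of cholecystokinin and gastrin, measured -4.49, -5.20 and -4.46 on the 0 d arrays and -0.36, -0.43 and -0.16 on the 4 d arrays and rose by 4.40 ± 0.174 (SE), adjusted p = 8.37e-09, above background on 2 of the 0 d arrays. Sstr4, a somatostatin receptor, rose by 1.15 ± 0.135 (SE), adjusted p = 0.000128, and was not called after quantile normalization (0.83).

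Ion channel genes were called in both directions. Of 66 potassium channel subunits 3 were called up and 5 down, with a median of -0.38. Every 4 d array lay below every 0 d array in 30 of the 66, and above in 8. Over all genes 5.25% were called up and 0.624% down. Kcng1, a modulatory subunit of Kv2 channels, measured -1.22, -1.25 and -1.67 on the 0 d arrays and -3.19, -2.78 and -3.17 on the 4 d arrays, a fall with log2 change -1.66 ± 0.187 (SE), adjusted p = 8.66e-05. Kcns1, another such subunit, measured 2.60, 2.44 and 2.16 on the 0 d arrays and 1.42, 1.46 and 1.08 on the 4 d arrays, a change of -1.08 ± 0.129 (SE), adjusted p = 0.000141. Kcng3 (-1.21), Kcnip4 (-1.01) and Kcnk18 (-1.004) also fell. Without replicate 3 of 4 d, Kcns1 (-0.96), Kcng3 (-0.99) and Kcnip4 (-0.84) were not called, nor was Kcns1 without replicate 1 of 0 d (-0.98) or Kcnip4 without replicate 3 of 0 d (-0.99). Kcna2, the juxtaparanodal Kv1.2, changed by -0.74 ± 0.163 (SE), adjusted p = 0.00626 and was not called. Kcnk13, a tandem-pore channel, rose by 1.24 ± 0.138 (SE), adjusted p = 8.19e-05. Without replicate 3 of 4 d, 1 of the potassium channel genes was called down in place of 5, and without replicate 1 of 4 d 9 were.

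Another rise in that list belongs to a probe that the array names Kcnd3 (Kv4.3), with -2.20, -2.40 and -2.22 on the 0 d arrays and 0.10, 0.74 and 0.98 on the 4 d arrays and a change of 2.88 ± 0.199 (SE), adjusted p = 1.3e-06. The array's annotation places this probe at rn4 chr3:128922797-128922856, where it shares 26 bases of the genome with a probe of Flrt3, whereas the reference table has Kcnd3 on chromosome 2. A second probe named Kcnd3 lies on the same stretch of chromosome 3 (change 2.13, adjusted p = 0.00848), and the 2 probes of Flrt3 changed by 2.28 and 3.03. The Kcnd3 value is therefore given as that of a probe at the Flrt3 locus and not as a level of Kv4.3. Of all named and listed genes, 5 had a probe on another chromosome than the reference table gives, and Il13ra1 was the other one of them that was called.

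One of 14 voltage-gated sodium channel genes was called. Scn3a, the Nav1.3 channel, measured -0.48, -0.45 and -0.43 on the 0 d arrays and 0.61, 1.15 and 1.40 on the 4 d arrays and rose by 1.505 ± 0.154 (SE), adjusted p = 4.07e-05. The nociceptor channels Scn10a (Nav1.8) and Scn11a (Nav1.9) changed by -0.58 ± 0.108 (SE), adjusted p = 0.0024 and -0.47 ± 0.115 (SE), adjusted p = 0.00981, and Scn9a (Nav1.7) by 0.12 ± 0.122 (SE), adjusted p = 0.473. Every 4 d array of Scn10a and Scn11a lay below every 0 d array, but neither change reached 2-fold. Cacna2d1, the calcium channel subunit that gabapentinoids bind, measured 4.74, 4.78 and 4.79 on the 0 d arrays and 6.14, 6.36 and 6.44 on the 4 d arrays (probe at chr4:15139912-15139971), a 2.92-fold rise (1.54 ± 0.0943 (SE), adjusted p = 4.21e-07). Cacna1i, a T-type channel, rose by 2.09 ± 0.309 (SE), adjusted p = 0.000632 from arrays of which 1 was above background at 0 d, and Cacng2, stargazin, fell, with log2 change -1.08 ± 0.158 (SE), adjusted p = 0.000589. Cacng2 was not called without replicate 3 of 4 d (-0.91). The main probe of Cacna1e was not called. Other probes of it, above background on 0 and 1 of the 0 d arrays, were called up (1.24 and 2.52, adjusted p = 0.0282 and 2.02e-05).

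Of 59 sensory transduction channels and receptors, 1 was called up and 4 were called down (5.25% and 0.624% of all genes), with a median of -0.41. Every 4 d array lay below every 0 d array in 32 of the 59, and above in 6. Without replicate 3 of 4 d, 1 was called down. Asic1, an acid-sensing channel, measured 1.85, 1.93 and 1.85 on the 0 d arrays and 1.24, 0.20 and 0.29 on the 4 d arrays, a change of -1.30 ± 0.239 (SE), adjusted p = 0.00229, while of its other probes 2 were not called (-0.62 and -0.43) and 1, above background on a single 0 d array, was called up (1.37). Mrgprx1, an itch receptor of nociceptors, fell with log2 change -1.05 ± 0.155 (SE), adjusted p = 0.000632, as did the kainate receptor Grik1 (-1.002). Neither was called without replicate 3 of 4 d (-0.88 and -0.86), nor was Grik1 without replicate 1 (-0.95) or 2 (-0.96) of 0 d or replicate 1 of 4 d (-0.98). Gabra5, a GABA-A receptor subunit, rose by 1.18 ± 0.136 (SE), adjusted p = 0.000107. Trpv1, the capsaicin receptor, changed by -0.48 ± 0.167 (SE), adjusted p = 0.0464, P2rx3, an ATP-gated channel, by 0.09 ± 0.144 (SE), adjusted p = 0.667 and Mrgprd, a receptor of non-peptidergic nociceptors, by -0.77 ± 0.315 (SE), adjusted p = 0.0815. Mrgprd measured -1.91, -0.40 and -0.35 on the 0 d arrays and -1.59, -1.64 and -1.73 on the 4 d arrays, so that the difference lay between the 4 d arrays and replicates 2 and 3 of 0 d, and it was called down without replicate 1 of 0 d (-1.28).

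The list of ganglion and sensory neuron identity genes held no called member. Changes of its 19 genes lay from -0.73 to 0.62, all under 2-fold, so that neither limma nor the methods' t-test could call one. The median was -0.23, and 12 had an unadjusted p under 0.05, as had 40.3% of all genes. Every 4 d array lay below every 0 d array in 11 of the 19, and above in 3. Ngfr, the shared p75 neurotrophin receptor, changed by -0.47 ± 0.111 (SE), adjusted p = 0.00834. Among neurotrophic factors and receptors 3 of 37 were upregulated and none downregulated, against 5.25% of all genes upregulated and 0.624% downregulated. Gfra1, the GDNF co-receptor, measured 4.28, 4.26 and 4.29 on the 0 d arrays and 5.23, 5.60 and 5.81 on the 4 d arrays and rose by 1.27 ± 0.126 (SE), adjusted p = 3.24e-05, Gdnf itself measured -1.02, -0.99 and -1.39 on the 0 d arrays and -0.44, 0.42 and 0.36 on the 4 d arrays and rose by 1.24 ± 0.253 (SE), adjusted p = 0.00411, and Fgf2 is given above. The signalling receptor Ret (0.08, adjusted p = 0.603) and the neurturin co-receptor Gfra2 (-0.16, adjusted p = 0.157) were not called. Of 20 genes of gp130 cytokine signalling, Il6 alone was called, given with the cytokines. Of 26 synaptic vesicle genes, Slc32a1, the vesicular GABA transporter, was called up (1.01 ± 0.23 (SE), adjusted p = 0.00726) and Rab3a, a vesicle GTPase, down (-1.07 ± 0.195 (SE), adjusted p = 0.00225). Neither was called without replicate 1 of 0 d, replicate 2 of 4 d or replicate 3 of 4 d.

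**Figure D3:**
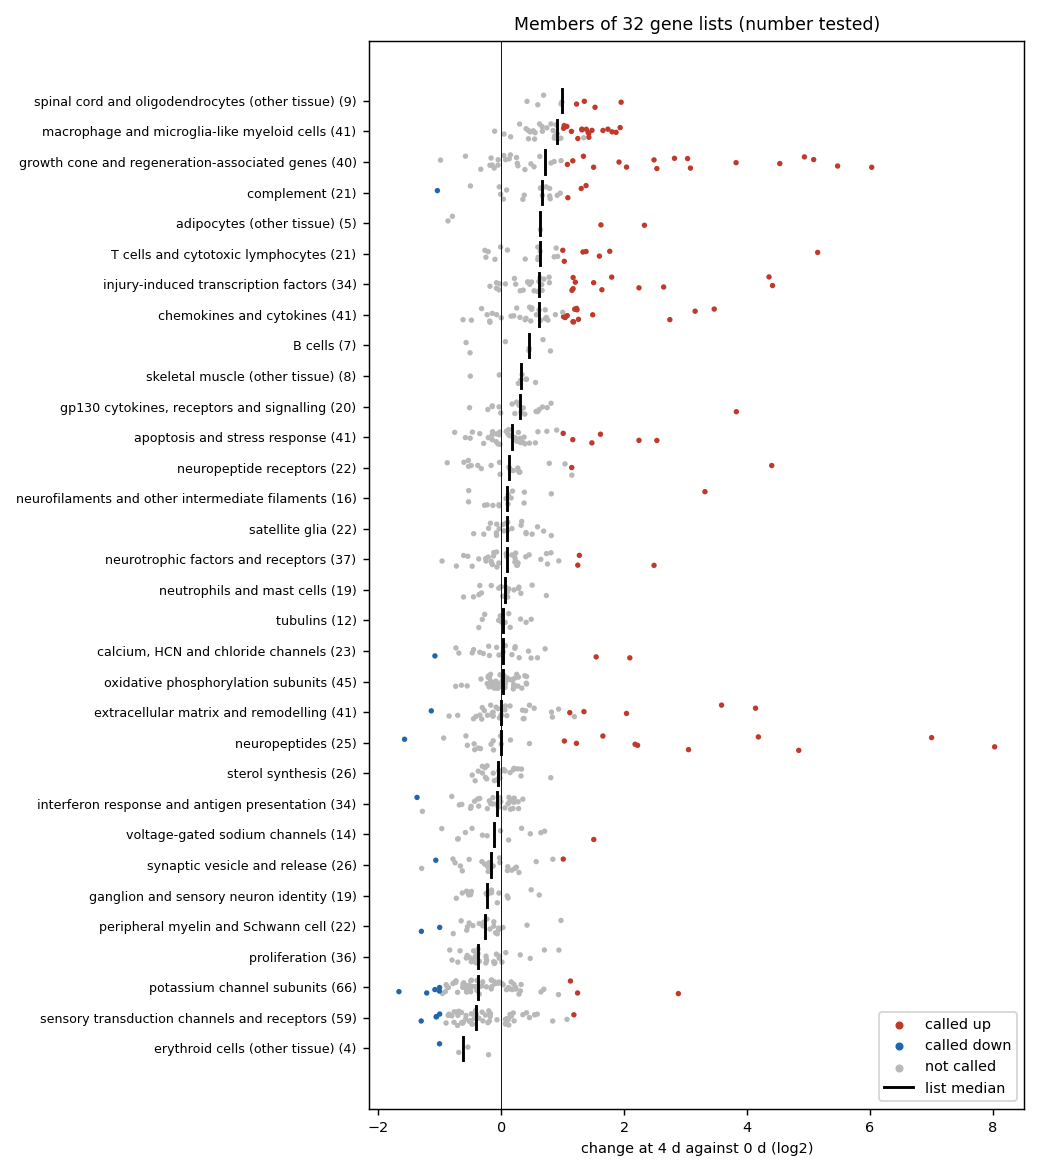
Change at 4 d against 0 d (x axis, log2) of every tested member of 32 gene lists, red for called up, blue for called down and grey for not called, with the median of each list as a black bar and lists ordered by it. The spinal cord and oligodendrocyte list lies furthest right, at a median of 0.99, ahead of the macrophage and regeneration-associated lists at 0.91 and 0.72. The erythroid list lies furthest left, at -0.62, and the sensory transduction list also lies left of 0, at -0.41.

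Of 41 tested members of the macrophage and microglia-like list 17 were upregulated and none downregulated, with a median of 0.91 and changes up to 1.93. The mean level of the list lay in a range of -0.80 to -0.13 over the 0 d arrays and of 0.29 to 0.48 over those of 4 d. Csf1, the growth factor that macrophages depend on, measured 0.10, 0.28 and 0.48 on the 0 d arrays and 2.18, 2.16 and 2.32 on the 4 d arrays (probe at chr2:203292994-203293053), a 3.82-fold rise (1.93 ± 0.106 (SE), adjusted p = 1.5e-07). The class II antigen-presenting genes RT1-Da and Cd74 measured 0.91, 1.002 and 1.20 on the 0 d arrays and 3.01, 2.63 and 3.08 on the 4 d arrays, and 1.84, 1.98 and 2.09 on the 0 d arrays and 3.72, 3.004 and 3.45 on the 4 d arrays, rises of 1.87 and 1.42 with adjusted p = 6.2e-06 and 0.000247. Fcgr2b, an antibody receptor, rose by 1.80 ± 0.199 (SE), adjusted p = 7.7e-05, the integrin chain Itgam by 1.65 and the lipid receptor Trem2 by 1.42. Cx3cr1, the fractalkine receptor, rose by 1.73 ± 0.286 (SE), adjusted p = 0.00125, above background on 2 of the 0 d arrays. Aif1, which encodes Iba1, measured 1.48, 1.81 and 2.46 on the 0 d arrays and 2.70, 2.93 and 3.17 on the 4 d arrays and rose by 1.01 ± 0.207 (SE), adjusted p = 0.00416, which was under 2-fold after quantile normalization (0.95) and without replicate 1 (0.79) or 2 (0.96) of 0 d or replicate 3 of 4 d (0.89). Cd68, a lysosomal marker of macrophages, measured 0.97, 0.94 and 1.38 on the 0 d arrays and 2.11, 1.97 and 2.12 on the 4 d arrays and changed by 0.97 ± 0.147 (SE), adjusted p = 0.000754, just under 2-fold, and was called without replicate 3 of 0 d (1.11) or replicate 2 of 4 d (1.02). The number of upregulated macrophage genes was 10 without replicate 1 of 0 d, 22 without replicate 3 of 0 d and 5 by the methods' t-test after Benjamini-Hochberg.

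In the complement list 3 of 21 were upregulated and 1 downregulated. After quantile normalization 1 was called up, and without replicate 3 of 0 d 7 were. C1qa, a chain of C1q, measured 1.84, 2.36 and 2.93 on the 0 d arrays and 3.62, 3.59 and 3.82 on the 4 d arrays and rose by 1.30 ± 0.234 (SE), adjusted p = 0.00207, whereas the probe of C1qb, its partner chain, measured 5.20, 5.73 and 5.64 on the 0 d arrays and 5.51, 5.35 and 5.68 on the 4 d arrays and changed by -0.01 ± 0.141 (SE), adjusted p = 0.964. C3ar1 (1.38) and properdin, Cfp (1.08), rose, and Cd55, an inhibitor of complement activation, fell (-1.04 ± 0.155 (SE), adjusted p = 0.000663). C3ar1 was under 2-fold after quantile normalization (0.99) and without replicate 1 of 0 d (0.98), and Cd55 without replicate 3 of 4 d (-0.83).

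Chemokines, cytokines and their receptors held 13 upregulated genes of 41 tested and none that fell, with a median of 0.62. Over all genes 5.25% were upregulated, and of those well above background on all 6 arrays 2.28%. Of the 13, 8 were well above background on every array of 0 d and 4 d. The 13 include Il13ra1, whose probe lies on chromosome 11, whereas the reference table has the gene on X. Its other probes were not called (0.72, 0.85 and 0.92). Il1r2, the decoy receptor of interleukin 1, measured -3.64, -4.05 and -4.21 on the 0 d arrays and -0.93, -0.99 and -0.51 on the 4 d arrays and rose by 3.15 ± 0.181 (SE), adjusted p = 2.32e-07. Cxcl13, a B cell chemokine, measured -2.33, -0.02 and 1.09 on the 0 d arrays and 2.36, 2.11 and 2.49 on the 4 d arrays, a rise of 2.74 ± 0.617 (SE), adjusted p = 0.00684 from widely spread 0 d arrays. Ccl2, a monocyte chemokine, measured 2.56, 2.84 and 3.06 on the 0 d arrays and 3.67, 3.90 and 3.94 on the 4 d arrays, a rise of 1.01 ± 0.136 (SE), adjusted p = 0.000332, which fell under 2-fold after quantile normalization (0.94) and without replicate 1 of 0 d (0.88) or replicate 2 (0.98) or 3 (0.96) of 4 d. Il6 and Il1a were above background on no 0 d array and were at least 3.14-fold and 2.63-fold higher at 4 d, a bound against each 0 d array's lowest signal that was well above background. Il1b (1.18), Il1rn (1.22) and Il4r (1.19) rose by little more than 2-fold. Without replicate 1 of 0 d, 8 genes of the list were called up.

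Markers of T cells and cytotoxic lymphocytes were dim at 0 d, with 8 of 23 genes well above background on all 0 d arrays and 18 at 4 d, and 7 of 21 were upregulated, 2 of them above background on all 6 arrays. The count was 4 after quantile normalization, 1 with normexp, 4 without replicate 3 of 4 d and 10 without replicate 3 of 0 d. Gzmb, the cytotoxic protease granzyme B, measured -5.66, -6.17 and -3.93 on the 0 d arrays and -0.16, -0.31 and 0.16 on the 4 d arrays, a rise of 5.15 ± 0.431 (SE), adjusted p = 7.51e-06, while its second probe was not called (1.53, adjusted p = 0.132). Cd8b rose by 1.38 ± 0.259 (SE), adjusted p = 0.00267. Of the chains of the T cell receptor complex, Cd3d changed by -0.27, Cd3g by -0.25, neither of them called, and Cd3e was above background on no array of either day. The 7 B cell genes changed by -0.57 to 0.80 (2 at an unadjusted p under 0.05). The 19 neutrophil and mast cell genes changed by -0.61 to 0.73 (0 at an unadjusted p under 0.05). All were under 2-fold, so that neither limma nor the methods' t-test could call one. In the interferon list Oasl was the only gene of 34 called, and it fell (-1.37 ± 0.402 (SE), adjusted p = 0.0233). It was not called without replicate 3 of 0 d (-0.91) or replicate 2 of 4 d (-1.21).

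The glial lists are set beside the 5.25% of all genes called up and the 0.624% called down. The 22 satellite glia genes changed by -0.45 to 0.81, with 8 at an unadjusted p under 0.05 and a median of 0.09. With all arrays kept these changes were under 2-fold, so that neither limma nor the methods' t-test could call one. Gfap, a glial filament that satellite cells are known to switch on, measured -4.39, -4.77 and -4.13 on the 0 d arrays and -3.04, -4.29 and -3.52 on the 4 d arrays and changed by 0.81 ± 0.354 (SE), adjusted p = 0.0969, with overlapping groups, and was called without replicate 2 of 4 d (1.15, adjusted p = 0.04). Of 22 myelin and Schwann cell genes 2 fell and none rose, with a median of -0.26. Pmp2, a myelin fatty acid-binding protein, measured 6.38, 6.17 and 5.64 on the 0 d arrays and 4.998, 4.78 and 5.40 on the 4 d arrays, a change of -1.001 ± 0.187 (SE), adjusted p = 0.00257, and Fa2h, which makes the hydroxylated lipids of myelin, fell with log2 change -1.30 ± 0.234 (SE), adjusted p = 0.0021. Pmp2 was not called without replicate 1 (-0.84) or 2 (-0.95) of 0 d or replicate 1 (-0.97) or 2 (-0.86) of 4 d. The 26 sterol synthesis genes changed by -0.47 to 0.81, all under 2-fold, so that neither limma nor the methods' t-test could call one. Of them 12 had an unadjusted p under 0.05, and Hmgcs1 was at -0.04 (adjusted p = 0.806).

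Of 36 proliferation genes, 0 were called in either direction by limma or by the methods' t-test. Their changes, from -0.84 to 0.94, were all under 2-fold, so that neither test could call one, with a median of -0.38. An unadjusted p under 0.05 was found for 26 of them, against 40.3% of all genes. Every 4 d array lay below every 0 d array in 19 of the 36, and above in 4. The 45 oxidative phosphorylation genes changed by -0.74 to 0.41, all under 2-fold, so that neither limma nor the methods' t-test could call one. Of them 14 had an unadjusted p under 0.05, and the median was 0.03. Of 41 apoptosis and stress genes 6 rose and none fell. Hrk, a BH3-only death protein of neurons, measured -1.51, -1.58 and -1.495 on the 0 d arrays and -0.14, -0.02 and 0.41 on the 4 d arrays and rose by 1.61 ± 0.138 (SE), adjusted p = 8.78e-06, and Trib3, a pseudokinase of the stress response, rose by 1.47 ± 0.159 (SE), adjusted p = 6.45e-05. In the matrix list 5 of 41 rose, led by the metalloproteases Mmp3 (4.14 ± 0.314 (SE), adjusted p = 2.98e-06) and Mmp12 (3.58 ± 0.215 (SE), adjusted p = 3.54e-07), each above background on 1 array of 0 d, and Timp3, a metalloprotease inhibitor, fell (-1.14 ± 0.166 (SE), adjusted p = 0.000588). It was not called without replicate 1 of 4 d (-0.95). The inhibitor Timp1 rose (1.11).

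Genes of other tissues were followed on the same arrays. In the adipocyte list Cidec (2.33 ± 0.243 (SE), adjusted p = 4.95e-05) and Plin1, which was above background on no 0 d array and at least 1.21-fold higher at 4 d, were called up, while Adipoq changed by -0.87 and Fabp4 by -0.79 without passing the test. Of 9 spinal cord and oligodendrocyte genes 4 were called up, namely Opalin, Slc6a5, Chat and Olig1, with a list median of 0.99. After quantile normalization or with the authors' values 1 was called, and with normexp 0. Olig1 was also not called without replicate 2 or 3 of 0 d or replicate 2 or 3 of 4 d. The mean level of the list lay in a range of -5.19 to -5.03 over the 0 d arrays and of -4.21 to -3.82 over those of 4 d. The 4 genes were above background on 0 or 1 array of 0 d. Where a probe had to be above background on all 6 arrays 0 genes of the list were called, but that filter removes these 4 genes before any test. Their part in the other changes was not tested. In the erythroid list Slc4a1, the anion exchanger of red cells, was called down (-1.004 ± 0.336 (SE), adjusted p = 0.0393). It was not called without replicate 1 (-0.58) or 2 (-0.99) of 0 d or replicate 1 (-0.85) or 2 (-0.93) of 4 d.

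Genes that went from the background to a clear signal were those called up with no probe above background on any 0 d array. Hpd, an enzyme of tyrosine breakdown, measured -8.95, -7.31 and -6.90 on the 0 d arrays and -0.89, -1.70 and -1.20 on the 4 d arrays (probe at chr12:34556165-34556224) and was at least 23.8-fold higher at 4 d (adjusted p = 5.29e-07). Xcl1, the lymphocyte chemokine lymphotactin, measured -6.97, -7.06 and -5.46 on the 0 d arrays and -1.72, -1.51 and -1.22 on the 4 d arrays and was at least 20.1-fold higher. Aoc1, a diamine oxidase, was at least 8.17-fold higher, the lipid transporter Abca12 8.15-fold, the axonemal dynein Dnah3 6.52-fold and the steroid enzyme Hsd3b1 5.69-fold. In the opposite direction 1 gene was found, Rnase11, a secreted ribonuclease family member, with -6.45, -4.67 and -4.59 on the 0 d arrays and -7.69, -8.63 and -8.15 on the 4 d arrays, which was at least 3.84-fold lower at 4 d (adjusted p = 0.00818). Rnase11 was not called with normexp (-0.75) or by the methods' t-test after Benjamini-Hochberg (adjusted p = 0.0816). The 0 d arrays had the fewest probes above background and a scan day of their own, from which the excess of genes that went on cannot be told apart. The largest change of any named gene was that of Crisp3, a secreted cysteine-rich protein, which measured -5.45, -6.45 and -5.26 on the 0 d arrays and 3.69, 4.18 and 4.67 on the 4 d arrays (probe at chr9:16697386-16697445), a rise of 9.91 ± 0.293 (SE), adjusted p = 5.98e-10, with 2 of the 0 d arrays above background.

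The largest falls among genes measured on all 6 arrays were small beside the rises, from -1.37 to -1.76. Among them were Kcng1, given above, Amigo3, an adhesion protein of neurons, which measured -1.13, -1.40 and -1.33 on the 0 d arrays and -2.48, -2.89 and -3.22 on the 4 d arrays (-1.58 ± 0.152 (SE), adjusted p = 2.53e-05), and Tmem255a, a membrane protein, which measured -0.55, -0.54 and -0.50 on the 0 d arrays and -1.68, -2.02 and -2.23 on the 4 d arrays (-1.45 ± 0.194 (SE), adjusted p = 0.000324). These 3 were called under every alternative tried. Glycam1 (-1.76), a mucin-like adhesion ligand, Cyp11b3 (-1.68), a steroid hydroxylase, and Notch1 (-1.44), a cell-fate receptor, were called down as well, with adjusted p = 0.0153, 0.0366 and 0.0421. Their calls rested on single arrays. Glycam1 was not called without replicate 2 (-1.38) or 3 (-1.48) of 0 d or replicate 3 of 4 d (-1.71). Cyp11b3 was not called without replicate 3 of 0 d (-0.83) or any 1 of the 4 d arrays (-1.72 to -1.66), and Notch1 without any 1 of the 0 d arrays (-1.61 to -1.17) or replicate 1 (-1.22) or 2 (-1.36) of 4 d. Treh, trehalase (-1.54), Disp3 (-1.48), Lnx2 (-1.43), the olfactory receptor Or10s1 (-1.42) and Depp1 (-1.37) made up the rest. Lnx2 was not called without replicate 2 (-1.36) or 3 (-1.24) of 0 d or replicate 3 of 4 d (-1.34), and its other probe changed by 0.74 (adjusted p = 0.00431). Or10s1 was not called without replicate 2 or 3 of 0 d or replicate 1 or 3 of 4 d (-1.42 to -1.24).

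The 4 d arrays were also compared with those of 1 d and of 7 d, and both comparisons share the 4 d arrays with that against 0 d. Against 1 d, 1.51% of the genes were higher at 4 d and 2.82% lower. The mean of Vip went from -3.36 (0 d) through 1.09 (1 d) to 4.67 (4 d), 4.77 (7 d) and 4.82 (14 d), with a difference of 3.58 from 1 d to 4 d (adjusted p = 8.58e-06). Crisp3 rose by 5.38 from 1 d, Ucn by 4.54, Pdyn by 4.43 and Npy by 3.45, with adjusted p = 7.14e-07, 3.73e-08, 4.59e-07 and 0.000773. Atf3 was different, at 6.10 on 1 d and 5.92 on 4 d, a difference of -0.18 that did not pass the test (adjusted p = 0.311). Serpinb2 was lower at 4 d than at 1 d by a log2 difference of -1.43 (adjusted p = 0.00106) and Il6 by one of -1.17 (adjusted p = 0.0419).

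The 5 largest falls from 1 d to 4 d were those of Or5p81, Or1i2, Or2y13 and Or4c1, 4 olfactory receptors, and of the membrane protein Ano7, between -2.48 and -2.68. None of the 5 was called at 4 d against 0 d. For Or2y13 the 0 d arrays read -4.76, -3.70 and -4.13, those of 1 d -1.91, -2.23 and -2.23 and those of 4 d -4.72, -4.94 and -4.45, so that the 1 d arrays stood apart. Without replicate 1 of 1 d the number of probes called down against 1 d was 530 in place of 960.

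**Figure D4:**
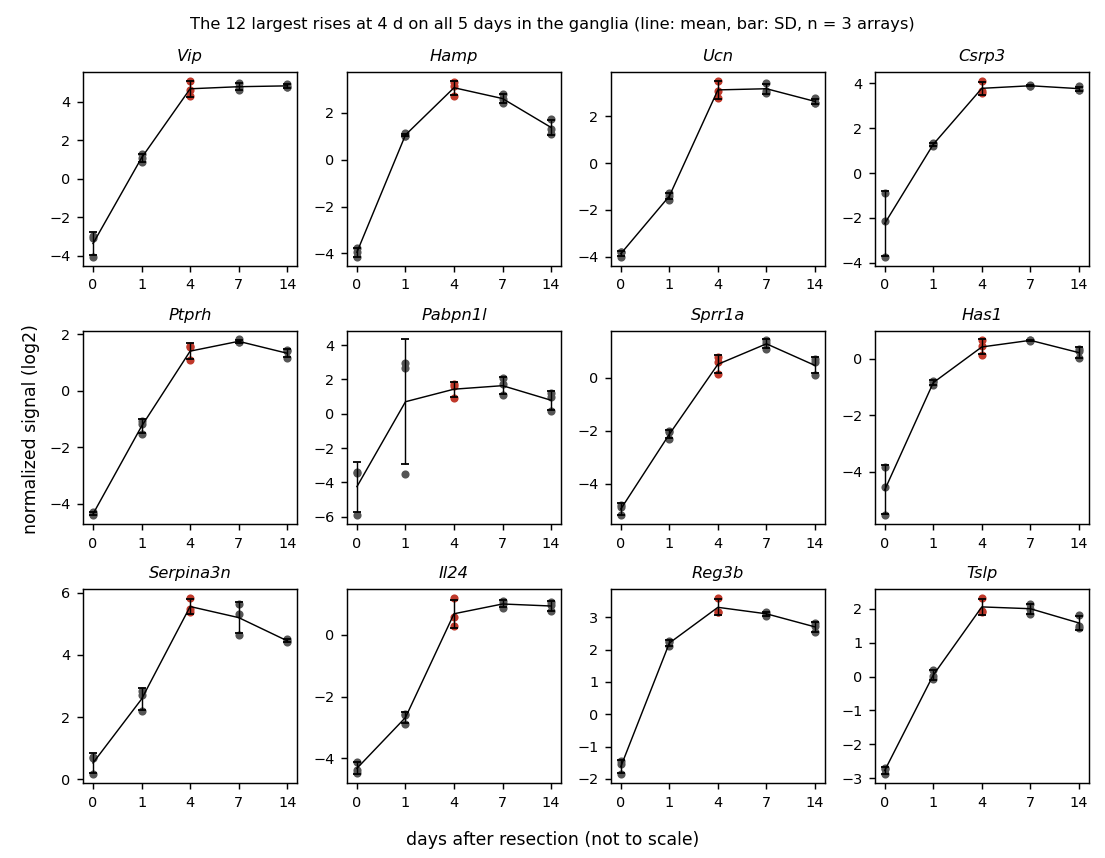
Normalized signal (y axis, log2) of the 12 genes with the largest rises on each of the 5 days (x axis, not to scale), with points for arrays, red at 4 d, and a line through the means with bars of 1 SD (n = 3 arrays). The panels of Vip, Ucn and Csrp3 climb through 1 d to a level near that of 7 d, and Pabpn1l shows 1 array of 1 d far below the other 2.

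From 4 d to 7 d, 0.166% of the genes were called higher at 7 d and 0.0208% lower. These counts rested on single arrays: of all probes 48 were up and 14 down, 126 and 455 without replicate 1 of 4 d, and 4 and 2 without replicate 3 of 7 d. Replicates 2 and 3 of 7 d were also scanned on another day than the 4 d arrays. Scan day as a block was an alternative chosen after seeing the data. Among these groups only 7 d spans the block, so that the difference becomes that of replicate 1 of 7 d, 1 array, from the 4 d mean. On that array the differences were 1.51 for Cd74, 2.17 for RT1-DOa, 1.78 for RT1-Bb, 1.42 for Gbp5 and 1.30 for Phf11b. They were -1.49 for Cd163, -1.40 for Lyve1 and -1.32 for Per2. The largest rises held class II antigen-presenting genes. Cd74, the invariant chain, read 3.72, 3.004 and 3.45 at 4 d and 4.90, 4.75 and 5.004 at 7 d, a difference of 1.49 (adjusted p = 0.0093), RT1-Bb rose by 1.62 (adjusted p = 0.0168) and RT1-DOa by 1.95 (adjusted p = 0.0128). RT1 genes are close relatives whose probes may share signal. Gbp5 and Phf11b rose by 1.79 and 1.46. The 3 genes called down were Cd163, a scavenger receptor of resident macrophages (-1.32, adjusted p = 0.0093), the hyaluronan receptor Lyve1 (-1.28, adjusted p = 0.0403) and the clock gene Per2 (-1.20, adjusted p = 0.0125). Vip, Gal, Csrp3 and Gap43 differed between 4 d and 7 d by 0.11, 0.13, 0.11 and -0.05, none of which passed the test.

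The proximal stump of the same nerve, which holds axons and Schwann cells but no sensory cell bodies, was compared at 4 d by the interaction in limma over all 30 arrays. The change at 4 d differed between ganglion and nerve in 48.1% of 14063 genes tested in both, at an adjusted p under 0.05. Atf3 changed by 4.36 in DRG and by -0.06 in SN, a difference of 4.41 (adjusted p = 8.35e-15). Vip rose by 8.03 in DRG and changed by -1.98 in SN (adjusted p of the difference = 1.02e-13), and Gal by 4.18 and -0.70 (adjusted p = 1.09e-14). Gap43 and Cacna2d1 rose in DRG, by 1.34 and 1.54, and changed by -0.55 and -0.59 in SN, with adjusted p of the difference of 2.57e-07 and 0.00124. Within slides, an alternative chosen after seeing the data, the difference of Cacna2d1 was 2.07 and did not pass the test (adjusted p = 0.0528). Penk fell in DRG (-1.57) and changed by 2.62 in SN (adjusted p = 7.94e-09). Ngfr changed by -0.47 in DRG and by 3.54 in SN (adjusted p = 1.18e-14), and Hmgcs1 by -0.04 and -2.39 (adjusted p = 7.5e-10). For Cd68 the nerve changed more, 2.95 against 0.97 (adjusted p = 6.59e-07). The differences of Nts (-0.79), Ccl2 (-0.52) and Sox11 (0.83) did not pass the test.

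**Figure D5:**
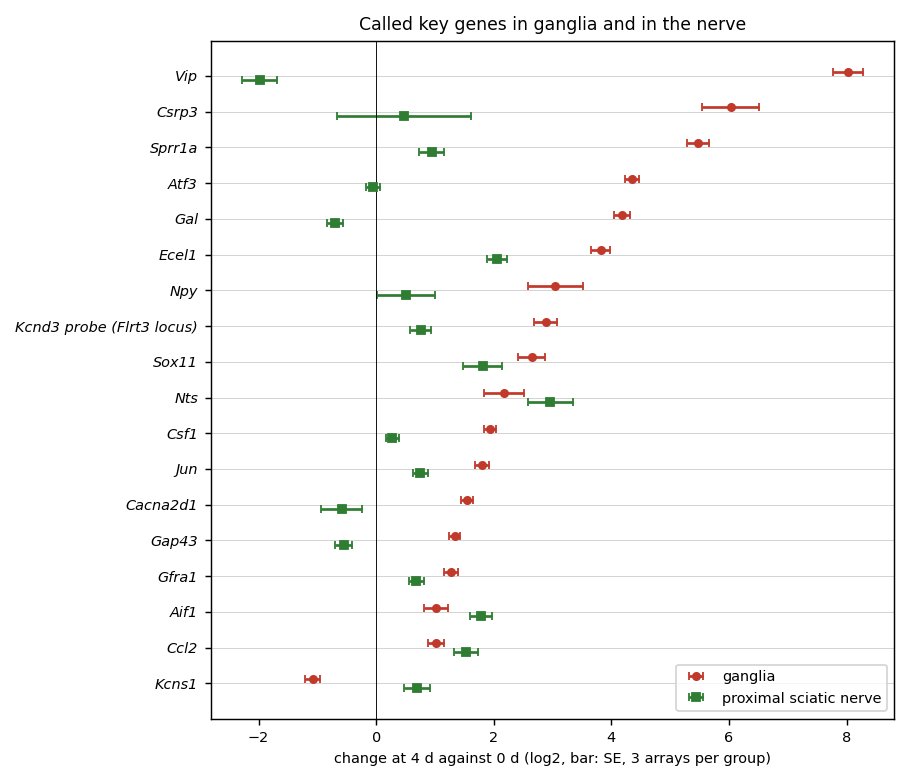
Change at 4 d against 0 d (x axis, log2) of the 18 called key genes in the ganglia (circles) and in the proximal sciatic nerve (squares), with bars of 1 SE from fits of 3 arrays per group. Vip, Csrp3, Sprr1a, Atf3 and Gal lie far to the right in the ganglia and near or below 1 in the nerve, while the squares of Nts, Aif1 and Ccl2 lie to the right of the circles.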

How the data were processed

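RNA of L4-6 ganglia and of proximal nerve was labelled with Cy3 and hybridized to 1-colour Agilent rat arrays, 3 per tissue and day. The intensity values are the scanner's processed signals as the authors deposited them. Per the file headers they were background-subtracted and detrended within each array, with no scaling between arrays. The log2 values of the authors' deposited matrix, quantile-normalized over all 30 arrays, served as an alternative.

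Here outlier spots were left out, spots that repeat a probe were averaged on the log2 scale (263 of 41012 probes had several), and each array's 75th percentile over non-control probes was subtracted. No spot was saturated. Between 26941 and 34742 probes were well above background (50% of spots or more marked so) on the 6 arrays, and the small number of arrays limits the precision. A probe had to pass background on every array of at least 1 DRG day, and the 34977 that did were fitted with limma 3.58.1 (statmod 1.5.0, R package data.table, version 1.17.8, R 4.3.3) on 15 DRG arrays, or on all 30 for the difference from the nerve. Tables and plots were made with Python 3.11.15, pandas 2.3.3, NumPy 2.4.6 and matplotlib 3.10.9. The fit was tested on simulated data.

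Genes were named from RefSeq accessions or symbols (assembly GRCr8), which matched 21249 probes, and represented by the probe with the highest mean signal over the DRG arrays. Named were 38 key genes, the 12 largest called rises and falls among genes above background on all 6 arrays with groups that do not overlap, up to 6 genes that went on or off, up to 4 called members in each direction of each of 32 gene lists, and the 5 largest changes against 1 d and to 7 d. Some genes that this rule names are not reported here. The members and lists were chosen with earlier results of these data known. In the 6 arrays 122 probe values were missing, none of a named gene. Alternatives were other scalings, filters, tests, blocks and left-out arrays.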

Additional observations from a re-analysis of the deposited data

Results flagged for a closer look

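Of the 18 key genes called at 4 d, 15 changed by a different amount in the ganglion than in the proximal nerve (adjusted p under 0.05 in limma). Over all 14063 genes tested in both tissues this share was 48.1%. The 18 were picked by their change in DRG, which is part of the difference, so that the choice itself favours a difference. Their count is thus no test. The change in DRG minus that in SN was 4.41 for Atf3, 1.05 for Jun, 1.89 for Gap43, 4.53 for Sprr1a, 5.55 for Csrp3, 1.77 for Ecel1, 4.88 for Gal, 2.54 for Npy, 10.01 for Vip, 0.59 for Gfra1, 2.13 for Cacna2d1 and 1.66 for Csf1, and 2.13 for the probe named Kcnd3. It was negative, so that the nerve value was the higher one, for Kcns1 (-1.77) and Aif1 (-0.77). With the slide as a block, an alternative chosen after seeing the data, the difference no longer passed the test for Csrp3 (5.89, adjusted p = 0.0718), Gfra1 (0.64, adjusted p = 0.0838), Cacna2d1 (2.07, adjusted p = 0.0528) and Aif1 (-0.49, adjusted p = 0.308). Groups of 3 arrays are too small for a test of single outlying arrays.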

How the results depend on the processing

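At 4 d against 0 d, quantile normalization called 1232 probes up and 383 down, normexp with quantile normalization 341 and 82, the authors' values 1200 and 405, and the methods' t-test after Benjamini-Hochberg 714 and 36. No filter gave 2092 up and 2392 down, and a filter on both days 620 up. Leaving out single arrays gave 1333 to 2898 up and 95 to 289 down, with the lowest of both without replicate 3 of 4 d. For 4 d against 1 d, normexp with quantile normalization gave 207 up and 151 down, and leaving out single arrays 360 to 794 up and 530 to 998 down. For 7 d against 4 d, normexp gave 2 down, and leaving out single arrays 4 to 126 up and 2 to 455 down, the highest of both without replicate 1 of 4 d. The difference from SN was called in 10146 probes with the slide as a block, chosen after seeing the data, against 15309, and in 13612 to 16209 without single arrays. Same-numbered arrays did not deviate together (r between -0.01 and 0.13), and with the replicate number as a block 2012 probes were up and 165 down at 4 d, 31 up and 5 down from 4 d to 7 d, and 15008 differed from SN. Of 107 called named genes, 75 had a value in every alternative, and 33 of these kept their call in all. The other 32 had none where a probe had to pass background on both days, and 15 of them kept it in the rest. By the adjusted t-test 52 of the 107 lost it. No named call reversed. With replicate 1 of 0 d as the only control, also chosen after seeing the data, 1977 probes rose and 249 fell. Scan day as a block cannot be estimated for 4 d against 0 d, since the 0 d arrays were the only DRG arrays of their scan day. For 7 d against 4 d it gave 42 probes up and 34 down (chosen after seeing the data). The dim end limits these arrays: below about the lowest signal well above background (-7.03 to -5.06 at 0 d), levels have no order.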
